A study of Homo sapiens with 6 samples.

Results

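Transcripts of 10 genes of the ATF4 pathway and the unfolded protein response were examined in SW480, an established human cell line of colorectal adenocarcinoma origin. The genes were chosen by name (ATF4, DDIT3, ATF3, ASNS, TRIB3, CHAC1, HSPA5, XBP1, PPP1R15A and SESN2), out of 56303 genes in the deposited table, and all 10 passed the filter on low counts. RNA-seq had been performed on 3 libraries of cells carrying a nonsilencing hairpin (shCtrl, genotype given as WT) and 3 libraries of cells carrying a hairpin against MORC2 (shMORC2), a nuclear ATPase of the microrchidia family. Hairpins were delivered by lentivirus and stable clonal lines were selected with puromycin, so a difference between the lines cannot be told apart from the knockdown, and p-values measure the spread between replicate experiments on these lines.

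Cells that lack amino acids, heme or correctly folded protein in the endoplasmic reticulum (ER) phosphorylate the initiation factor eIF2, which slows general translation and lets the mRNA of the transcription factor ATF4 be translated through its upstream open reading frames. This route is called the integrated stress response. ATF4 raises genes of amino acid supply and of stress signaling. The unfolded protein response adds the ER sensors IRE1, which removes a short intron from XBP1 mRNA, and ATF6, which is cut to release a transcription factor, and both drive ER chaperones such as HSPA5. Secretory cells of the intestine depend on this system. Gene counts measure mRNA levels only. They show neither ATF4 protein nor the share of XBP1 mRNA that has been spliced.

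The libraries held 42092664 to 43434425 counts. MORC2 itself stood at 64.7% of the control level (log2 fold change -0.63, SE 0.095, edgeR adjusted p 0.000216). Of 7 epithelial and intestinal markers, EPCAM, KRT8, KRT18 and VIL1 were abundant (means of 97.9 to 2236 RPKM in shCtrl, a level scaled to exon length and library total). CDH1 stood at 24.3 RPKM, and CDX2 and KRT20 at 3.71 and 5.15 RPKM. Of 5 markers of leukocytes, fibroblasts and endothelium, PTPRC reached 6 counts and COL3A1 9 counts in its highest library, while COL1A1, PECAM1 and VWF averaged 0.213 to 1.95 RPKM in shCtrl. CDX2, KRT20 and VWF, an endothelial gene, were called higher in shMORC2 (log2 fold changes 0.47, 0.75 and 0.54). Without shCtrl replicate 2 (introduced next) CDX2 and VWF were not called (edgeR adjusted p 0.0648 and 0.0856), while under the replicate block CDH1 and PECAM1 were also called higher (edgeR adjusted p 0.00613 and 0.00587). The part of these markers in the results below was not tested. One control library has to be introduced before the results. For 5 of the 10 genes shCtrl replicate 2 stood more than 0.5 on the log2 scale above both other control libraries, a gap found for 2.48% of the 21005 genes tested. Results on the 10 genes and the list counts are therefore given with and without shCtrl replicate 2. In the other direction, shCtrl replicate 1 stood more than 0.5 below both other controls for 2 of the 10 genes (DDIT3 and PPP1R15A). That gap was found for 3.55% of the genes tested.

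Short sequences in promoters are known to bind the factors of these pathways, and the stretches that carry them are shown because their owners did not all move the same way. A C/EBP-ATF response element (TGATGNAA, bound by ATF4 with a partner) and an ER stress response element (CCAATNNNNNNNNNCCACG, bound by ATF6 with NF-Y) were searched on both strands from 250 bases before to 50 bases after each RefSeq start site on GRCh38.p14. These patterns do not overlap in the genes below. The first was found for 3 of the 10 genes (ATF3, ASNS and CHAC1) and for 4.46% of 27305 genes, the second for 2 of the 10 (HSPA5 and XBP1) and for 0.0916% of genes. The 10 genes had 17 such windows and the 27305 genes 35116, so the shares rest on unlike numbers of windows per gene. Elements outside the windows or departing from the patterns were not searched for, so a gene without a match may still carry one. Each line runs 5′ to 3′ along the strand of the gene, with the match in capitals. The ATF3 stretch lies on the plus strand at chr1:212565205-212565234, ASNS on the minus strand at chr7:97872458-97872487, CHAC1 on the plus strand at chr15:40953251-40953280, HSPA5 on the minus strand at chr9:125241386-125241414 and XBP1 on the minus strand at chr22:28800598-28800626. In CHAC1 the match is on the opposite strand. The ASNS and CHAC1 stretches fall inside exons that GENCODE v44 gives these genes, and the others lie outside the GENCODE gene.
ATF3: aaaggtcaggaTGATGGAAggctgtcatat
ASNS: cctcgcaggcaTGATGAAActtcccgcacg
CHAC1: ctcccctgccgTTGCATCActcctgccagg
HSPA5: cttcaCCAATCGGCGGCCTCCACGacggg
XBP1: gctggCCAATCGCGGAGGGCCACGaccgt

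To learn how these genes differed after MORC2 depletion, their counts were compared between shMORC2 and shCtrl. All 10 were called (edgeR, adjusted p below 0.05), 9 lower and 1 (HSPA5) higher in shMORC2. Among all 21005 genes tested 39.5% were called, 19.6% lower and 19.9% higher. The median log2 fold change of the 10 genes was -1.11, against -0.0056 over all genes tested. The 10 genes were chosen with earlier results of these data known, so setting them beside all genes is a description and no test. The 3 shMORC2 values lay below the 3 shCtrl values for 7 of the genes and above them for 1, and each of these patterns was found for 25.1% of all genes tested. Without shCtrl replicate 2, 8 of the 10 were still called (7 lower and 1 higher, where 29.8% of genes were called in either direction), and the median log2 fold change was -0.60. In bulk RNA, fewer cells with a transcript and less of it per cell cannot be told apart.

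**Figure D1:**
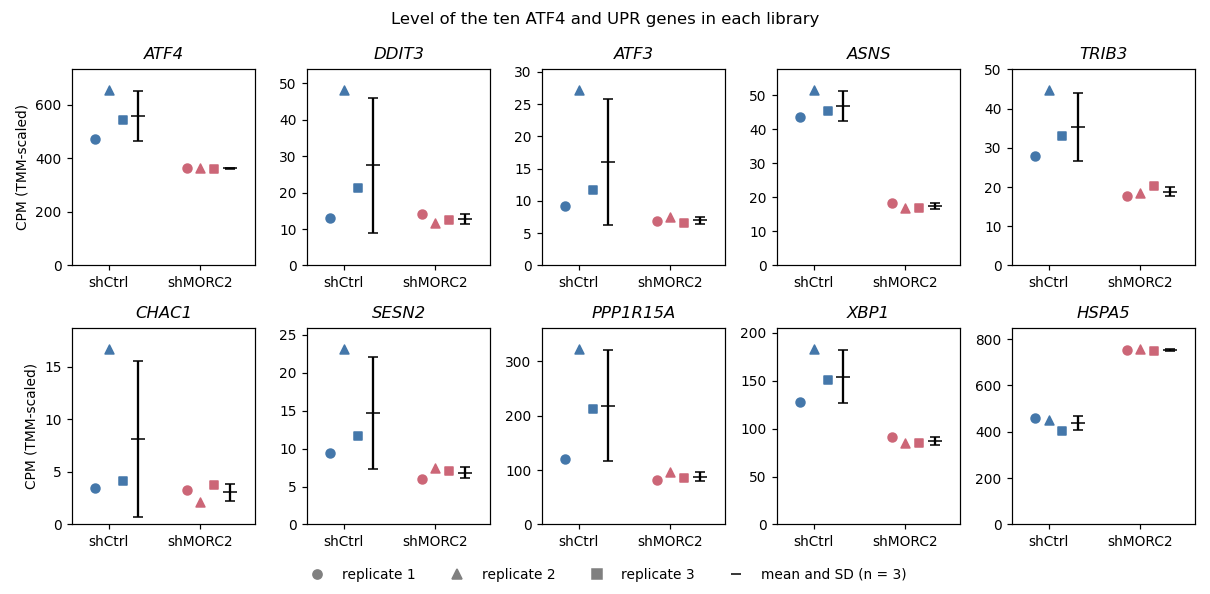
CPM (counts scaled to library size with TMM factors, linear axes from 0) of the 10 genes in each of the 3 shCtrl and 3 shMORC2 libraries, with marker shapes for replicates and the mean and SD beside them. The shMORC2 points lie close together, shCtrl replicate 2 is the highest library for 9 genes, and HSPA5 is the only panel in which the shMORC2 mean is above the shCtrl mean.

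ATF4 (chromosome 22, 39519695 to 39522685, plus strand, GRCh38), the transcription factor of the pathway, stood at 472, 656 and 541 CPM (counts scaled to library size with TMM factors) in shCtrl replicates 1 to 3 and at 363, 363 and 361 CPM in shMORC2. The shMORC2 libraries were nearly equal and all lay below the lowest control library. The level fell from 556 ± 92.8 to 362 ± 1.09 CPM (SD, n = 3 each), to 65.1% of control (log2 fold change -0.62, SE 0.10, edgeR adjusted p 0.000403). Without shCtrl replicate 2 the log2 fold change was -0.49 (edgeR adjusted p 0.00156). Processed copies of ATF4 share its sequence, and the most abundant of them, ATF4P3, had 165 to 295 counts per library against 15106 to 27733 for ATF4.

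DDIT3 (chromosome 12, 57516588 to 57520517, minus strand) encodes CHOP, a C/EBP family factor that is induced by ATF4 and promotes cell death under lasting ER stress. It stood at 13.03, 48.3 and 21.2 CPM in shCtrl and at 14.1, 11.6 and 12.4 CPM in shMORC2, so the groups overlapped and the highest value was that of shCtrl replicate 2. The fitted log2 fold change, -1.11 (SE 0.33, edgeR adjusted p 0.0157), became -0.43 without that library and was no longer called (edgeR adjusted p 0.0847). With the replicate number as a block and without that library it was called (log2 fold change -0.34, edgeR adjusted p 0.0119). Leaving out shMORC2 replicate 2 or 3 ended the call at fold changes close to the full one (-1.05 and -1.09, edgeR adjusted p 0.0683 and 0.0667), as did DESeq2 (-1.11, adjusted p 0.113). Exons of MARS on the other strand cover 28.04% of the exon bases of DDIT3, and whether strand was used in counting is not given in the sources used here. Over the 6 libraries MARS had 22335 counts against 5120 for DDIT3. MARS was itself called lower in shMORC2 (log2 fold change -0.46, edgeR adjusted p 0.00122). Its part in the DDIT3 counts was not tested.

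ATF3 (chromosome 1, 212565334 to 212620777, plus strand), a stress-induced factor of the same bZIP class, stood at 9.15, 27.2 and 11.6 CPM in shCtrl and at 6.88, 7.52 and 6.53 CPM in shMORC2. The groups did not overlap, and the spread of shCtrl came mainly from replicate 2. The log2 fold change came to -1.20 (SE 0.30, edgeR adjusted p 0.00626), and -0.58 without that library (edgeR adjusted p 0.00964).

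ASNS (chromosome 7, 97852118 to 97872542, minus strand), which makes asparagine from aspartate and glutamine and is a classical ATF4 target, showed the largest fall of the 10 relative to its SE. It stood at 43.5, 51.7 and 45.4 CPM in shCtrl and at 18.4, 16.9 and 16.8 CPM in shMORC2. The groups were far apart, and the libraries within each lay close together. The level fell to 37.04% of control (log2 fold change -1.43, SE 0.09, edgeR adjusted p 3.02e-07), and the fold change was -1.36 without shCtrl replicate 2 (edgeR adjusted p 4.95e-06).

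TRIB3 (chromosome 20, 362835 to 397559, plus strand), a pseudokinase induced by ATF4 and CHOP that feeds back on ATF4, stood at 28.0, 44.8 and 33.0 CPM in shCtrl and at 17.8, 18.6 and 20.1 CPM in shMORC2, with no overlap. Its log2 fold change came to -0.90 (SE 0.14, edgeR adjusted p 0.000239), and -0.70 without shCtrl replicate 2 (edgeR adjusted p 0.000610). SESN2 (chromosome 1, 28259527 to 28282491, plus strand), a leucine sensor that restrains mTORC1 and is also a p53 target, stood at 9.42, 23.2 and 11.6 CPM in shCtrl and at 6.02, 7.40 and 7.02 CPM in shMORC2. These groups did not overlap either, and the log2 fold change, -1.11 (SE 0.25, edgeR adjusted p 0.00366), became -0.63 without shCtrl replicate 2 (edgeR adjusted p 0.00669).

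CHAC1 (chromosome 15, 40952962 to 40956519, plus strand), which degrades glutathione and lies downstream of ATF4, was the scarcest of the 10 genes in shMORC2. It stood at 3.47, 16.7 and 4.16 CPM in shCtrl and at 3.31, 2.14 and 3.73 CPM in shMORC2, on 89 to 706 counts per library. The groups overlapped, and shCtrl replicate 2 stood 4.38-fold above the mean of the other controls. The log2 fold change came to -1.40 (SE 0.46, edgeR adjusted p 0.0283) with that library and -0.32 without it (edgeR adjusted p 0.323). Adding the replicate block to the fit without it gave -0.11 (edgeR adjusted p 0.685). Leaving out shMORC2 replicate 2 or 3 also ended the call, at fold changes of -1.20 and -1.56 (edgeR adjusted p 0.119 and 0.0654), as did DESeq2 at -1.40 (adjusted p 0.136).

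PPP1R15A (chromosome 19, 48872392 to 48876057, plus strand) encodes GADD34, which brings a phosphatase to eIF2 and so ends the response. It stood at 119.6, 323 and 213 CPM in shCtrl and at 81.5, 97.0 and 85.4 CPM in shMORC2. The controls differed widely among themselves, yet the lowest of them exceeded every shMORC2 library. The level fell to 40.3% of control (log2 fold change -1.31, SE 0.24, edgeR adjusted p 0.000858), and the fold change was -0.92 without shCtrl replicate 2 (edgeR adjusted p 0.00299).

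The genes of the ER arm did not move together. XBP1 (chromosome 22, 28794555 to 28800597, minus strand), the factor activated by IRE1, stood at 128, 184 and 151 CPM in shCtrl and at 91.5, 84.6 and 85.2 CPM in shMORC2. It fell to 56.45% of control without overlap (log2 fold change -0.82, SE 0.11, edgeR adjusted p 7.43e-05; -0.68 without shCtrl replicate 2, edgeR adjusted p 0.000315). HSPA5 (chromosome 9, 125234853 to 125241330, minus strand), the ER chaperone BiP that also holds the sensors inactive, stood at 461, 452 and 404 CPM in shCtrl and at 752, 759 and 751 CPM in shMORC2. Every shMORC2 library was above every control. HSPA5 rose to 1.72-fold (log2 fold change 0.78, SE 0.076, edgeR adjusted p 6.71e-06), and the log2 fold change was 0.80 without shCtrl replicate 2. Both genes carry the ER stress response element shown above.

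**Figure D2:**
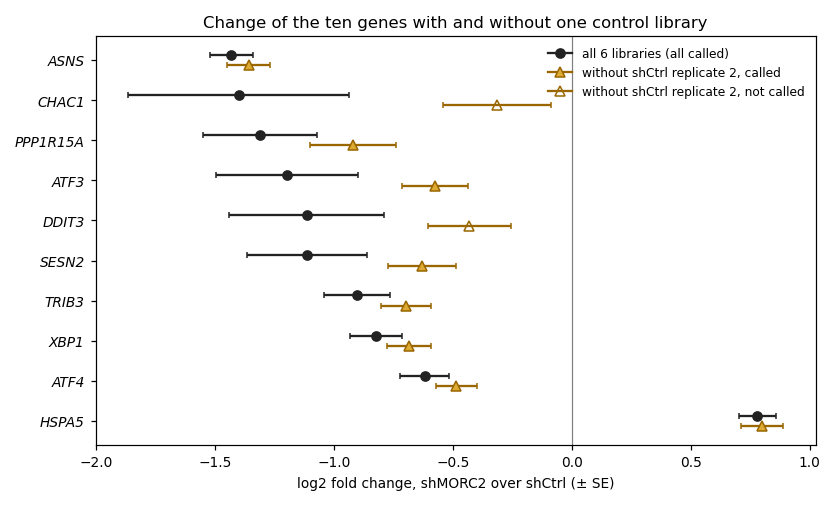
Fitted log2 fold change of each gene (shMORC2 over shCtrl, bars are SE) with all 6 libraries (circles) and without shCtrl replicate 2 (triangles, open where no longer called in the fit without a replicate block). HSPA5 alone is positive, ASNS and HSPA5 barely shift, and CHAC1 moves from -1.40 to -0.32.

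Levels were compared between genes on the RPKM scale, which accounts for exon length. In shCtrl the order of mean levels was ATF4 (222 ± 36.1 RPKM), HSPA5 (113 ± 10.5), PPP1R15A (70.6 ± 32.7), XBP1 (51.03 ± 8.95), DDIT3 (21.7 ± 14.7), ASNS (10.5 ± 0.960), TRIB3 (10.3 ± 2.5), SESN2 (4.28 ± 2.15), ATF3 (3.97 ± 2.44) and CHAC1 (3.95 ± 3.64; SD, n = 3 for each). Only the steps from ATF4 to HSPA5, from XBP1 to DDIT3 and from TRIB3 to SESN2 were free of overlap between libraries. In shMORC2 HSPA5 came first at 192 ± 3.81 RPKM and ATF4 next at 144 ± 3.37 RPKM, and their libraries did not overlap. The ratio of HSPA5 to ATF4 RPKM was 0.629, 0.443 and 0.480 in the shCtrl libraries and 1.33, 1.35 and 1.34 in the shMORC2 libraries. TRIB3 (5.46 ± 0.287 RPKM) stood above ASNS (3.88 ± 0.280 RPKM) in shMORC2 without overlap, while in shCtrl they overlapped. XBP1 and PPP1R15A overlapped in both groups.

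The spread among replicates differed between the groups for these genes. The SD of log2 CPM had a median of 0.511 over the 10 genes in shCtrl and of 0.0967 in shMORC2, while over all genes tested the medians were 0.142 and 0.147. For 9 of the 10 genes the control libraries stood in the same order, replicate 1 lowest and replicate 2 highest, an order found for 20.1% of all genes tested. HSPA5 was the exception. Relative to the mean of the other controls, shCtrl replicate 2 was 2.82-fold higher for DDIT3, 2.62-fold for ATF3, 2.20-fold for SESN2 and 1.94-fold for PPP1R15A, but 1.16-fold for ASNS and 1.04-fold for HSPA5. No label gives this library a different treatment, and why it stood apart was not tested.

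**Figure D3:**
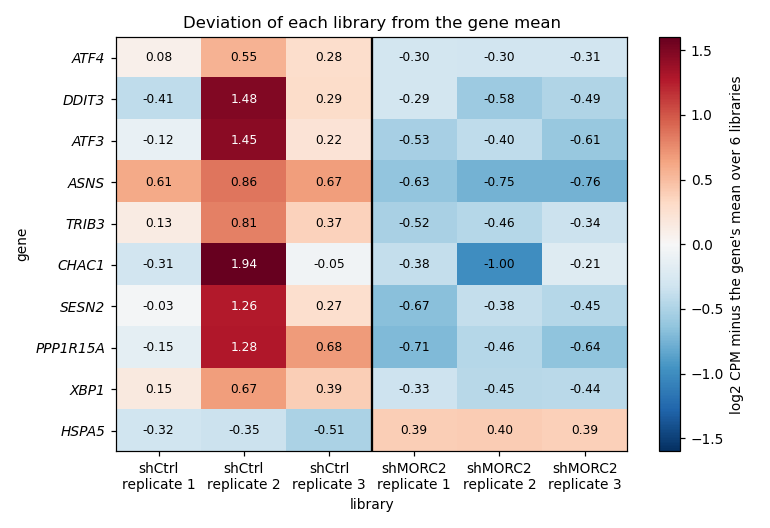
Log2 CPM of each gene in each library minus the mean of that gene over all 6 libraries (color scale and printed values; the line parts shCtrl from shMORC2). In 9 rows shCtrl replicate 2 has the highest value, up to 1.94 for CHAC1. In the shMORC2 columns the HSPA5 values are positive and those of the other rows negative.

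Other genes of these pathways, grouped by role in 6 lists, were read from the same fit, and their counts stand against 19.9% higher and 19.6% lower among all genes tested. Without shCtrl replicate 2, 3283 of these 21005 genes were called higher and 3095 lower. The lists, too, were chosen with earlier results of these data known. ER chaperones and folding enzymes were the list that was mostly higher. Of 21 tested, 18 were called higher and 1 lower (16 and 1 without shCtrl replicate 2), with a median log2 fold change of 0.57. MANF, a secreted ER stress protein, stood at 80.97, 69.5 and 79.8 CPM in shCtrl and at 170.0, 178 and 189 CPM in shMORC2 (log2 fold change 1.22, SE 0.08, edgeR adjusted p 4.44e-07). The groups were far apart for MANF. ERO1B, an oxidase that supplies disulfide bonds, was next highest, from a low level of 1.63 ± 0.0985 to 3.39 ± 0.959 CPM (log2 fold change 1.05, edgeR adjusted p 0.00209). FKBP14, a collagen-directed prolyl isomerase, was the one called lower (log2 fold change -0.67, edgeR adjusted p 0.000682). TXNDC5, a disulfide isomerase, had a log2 fold change of -0.20 that was not called (edgeR adjusted p 0.0864; 0.00921 with the replicate number as a block).

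Targets of ATF4 and CHOP outside amino acid supply were mostly lower. Of 17 tested, 13 were called lower and 1 higher (12 and 1 without shCtrl replicate 2), with a median log2 fold change of -0.63. DDIT4, an inhibitor of mTORC1, stood at 131, 383 and 244 CPM in shCtrl and at 41.7, 60.7 and 46.6 CPM in shMORC2 (log2 fold change -2.35, SE 0.28, edgeR adjusted p 3.16e-05). Its control libraries took the same order as the ATF4 targets above. GDF15, a secreted stress cytokine, fell from 137 ± 57.3 to 45.4 ± 2.44 CPM (log2 fold change -1.59, edgeR adjusted p 0.000116). ATF5, a relative of ATF4, rose (log2 fold change 0.42, edgeR adjusted p 0.00455), and ERO1A, an ER oxidase, was not called (log2 fold change 0.14, edgeR adjusted p 0.172). In this list 5 of 17 genes had shCtrl replicate 2 more than 0.5 above both other controls. FGF21, with 11 counts in its highest library, did not pass the filter.

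Genes of amino acid uptake and synthesis were called lower for 12 of 19 and higher for 1 (11 and 2 without shCtrl replicate 2), with a median log2 fold change of -0.29. SLC7A11, the cystine importer, stood at 17.2, 25.6 and 17.7 CPM in shCtrl and at 7.46, 6.15 and 5.59 CPM in shMORC2 (log2 fold change -1.65, SE 0.16, edgeR adjusted p 5.64e-06). SLC7A1, an importer of arginine and lysine, fell (log2 fold change -1.03, edgeR adjusted p 8.06e-06). SLC1A4, a carrier of neutral amino acids, rose from 2.48 ± 0.543 to 3.70 ± 0.298 CPM (log2 fold change 0.57, edgeR adjusted p 0.0227). Its call was lost without shCtrl replicate 3 and without shMORC2 replicate 3, where no gene of this list was called higher. SLC3A2, the heavy chain that partners SLC7A11, was not called (log2 fold change 0.20, edgeR adjusted p 0.0932), though it was with the replicate number as a block (adjusted p 0.00867) and without shCtrl replicate 2 (adjusted p 0.0202).

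Cytosolic aminoacyl-tRNA synthetases, which charge tRNAs and of which a part are ATF4 targets, were called lower for 11 of 20 and higher for 2 (9 and 2 without shCtrl replicate 2), with a median log2 fold change of -0.25. EPRS stood at 238, 216 and 215 CPM in shCtrl and at 148, 139 and 130.0 CPM in shMORC2 (log2 fold change -0.68, SE 0.08, edgeR adjusted p 2.56e-05). YARS fell by 0.62 on the log2 scale (edgeR adjusted p 3.57e-05). HARS and WARS rose, by log2 fold changes of 0.44 and 0.40 (edgeR adjusted p 0.000701 and 0.00104). Past 0.5 on the log2 scale were 3 called genes of these 20, all lower. Of all 21005 genes tested, 2153 were called lower and 2554 higher past 0.5.

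The sensors and eIF2 regulators were mixed, with 6 of 16 called lower and 2 higher (6 and 1 without shCtrl replicate 2) and a median log2 fold change of -0.08. These shares are 37.5% lower and 12.5% higher, against 19.6% and 19.9% of all genes tested. ERN1, which encodes IRE1, stood at 17.4, 24.2 and 20.2 CPM in shCtrl and at 8.45, 8.84 and 8.90 CPM in shMORC2 (log2 fold change -1.24, SE 0.12, edgeR adjusted p 6.18e-06). PPP1R15B, the constitutive partner of the eIF2 phosphatase, fell as well (log2 fold change -0.79, edgeR adjusted p 0.000321). EIF2B4, a subunit of the exchange factor of eIF2, rose (log2 fold change 0.62, edgeR adjusted p 7.46e-05), and EIF2B1, another subunit, was not called (log2 fold change 0.24, edgeR adjusted p 0.0539; 0.00763 with the replicate number as a block). Genes of ER-associated degradation, which clears misfolded protein, were called higher for 4 of 15 and lower for 3 (3 and 3 without shCtrl replicate 2), with a median log2 fold change of 0.06. These shares, 26.7% higher and 20.0% lower, lie near those of all genes tested (19.9% and 19.6%). DERL2 and VIMP (selenoprotein S), of the retrotranslocation machinery, rose (log2 fold changes 0.53 and 0.42, edgeR adjusted p 0.000500 and 0.00147). HERPUD1 and EDEM3, which act in substrate delivery and mannose trimming, fell (log2 fold changes -0.96 and -0.75, edgeR adjusted p 0.00572 and 5.71e-05). Without shCtrl replicate 2 the fold change of HERPUD1 was -0.53. DERL3, with 19 counts in its highest library, did not pass the filter.

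**Figure D4:**
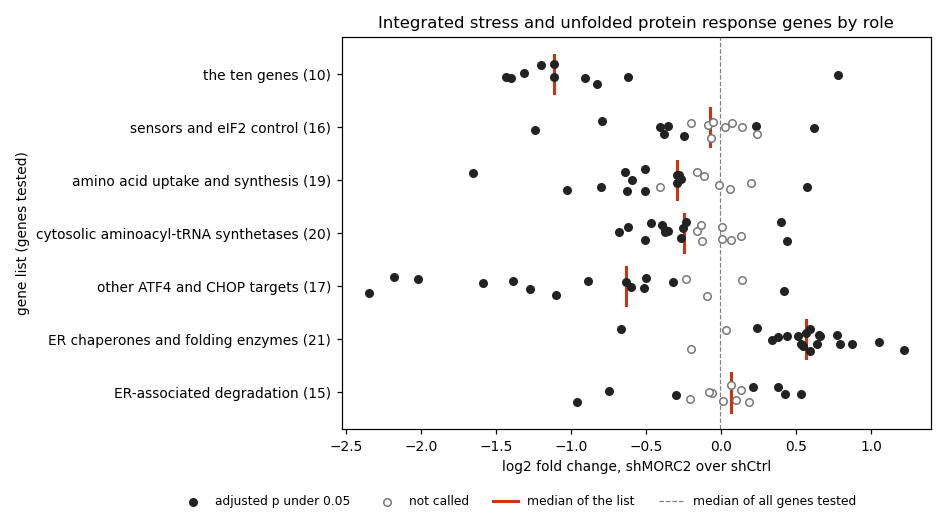
Log2 fold changes (shMORC2 over shCtrl) of the 10 genes and of 6 lists of related genes, 1 point per gene tested, filled where called, with the list medians (red) and the median of all genes tested (dashed). Points of the ER chaperone list lie mostly to the right, around a median of 0.57, and those of the ATF4 target lists mostly to the left.

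The genes whose pattern over the 6 libraries was nearest to that of ATF4 were sought among 14325 others with a mean of at least 100 counts, by the root mean square difference of centered log2 CPM. They were FOXA2 (0.0426), E2F2 (0.0469) and INTS6 (0.0513). Among the genes chosen by name at the outset, leaving aside those of the lists, XBP1 (0.109) and TRIB3 (0.159) were the nearest to ATF4 and HSPA5 (0.711) the farthest. These distances describe 6 libraries and rest largely on the difference between the groups.

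Labels number the replicates 1 to 3 in both groups. With the replicate number as a block all 10 genes were called in the same directions (where 49.0% of all genes tested were called).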

How the data were processed

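RNA of 3 shCtrl and 3 shMORC2 samples had been made into libraries with a stranded mRNA kit that adds molecular identifiers. Per the submitters' processing notes, Trimmomatic 0.36, STAR 2.5.3a, featureCounts (Subread 1.5.1) and edgeR 3.12.1 were used with GRCh38. Strand setting and collapsing of identifiers were not given in the sources used here. The table the authors deposited holds raw counts by gene symbol beside RPKM values, which matched counts divided by exon length and by the library's total within a relative tolerance of 0.001 for all 175196 nonzero values. Splicing tables with the authors' own comparisons were not used. The tables had 0 columns of other samples.

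Counts were fitted with edgeR 4.0.16 (R 4.3.3): filterByExpr, TMM, a quasi-likelihood test of the group and Benjamini-Hochberg adjustment over 21005 genes. SE is the size of the log2 fold change over the square root of F. CPM used TMM-scaled library sizes. Positions are those of the deposited table, of whose single-entry symbols 99.86% overlapped the GENCODE v44 entry. Promoters came from RefSeq, and all 10 genes matched. Alternatives used DESeq2 1.42.0 and limma 3.58.1. DESeq2 gave no adjusted p for 14909 genes. Tests were checked on simulated counts, drawn independently for each library. The simulation held no replicate pairing and no outlying control library, so it cannot speak to either. The genes, lists and rules were chosen with earlier results of these data known. Named were MORC2, the 10 genes, in each list the 2 highest and 2 lowest fold changes among genes averaging 100 counts or more, and the 3 genes nearest to ATF4. Library totals were 42092664 to 43434425 counts. Counting error is largest for genes with few counts, FAM129A (2 to 18 per library) and NUPR1 (11 to 126) among those called.

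Deviations of libraries with the same replicate number from their group means correlated across genes at 0.215, 0.111 and 0.102. All exceed 0.1. Correlations between libraries of unlike number were not computed, so these values cannot decide whether equal numbers mark pairs. The values given are from the fit without a block, as the design has it, and the blocked fit is an alternative, given where it changes a call.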

Additional observations from a re-analysis of the deposited data

How the results depend on the processing

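Of the 10 genes, 7 (limma on log2(RPKM + 1)) to 10 were called under the alternatives, and 8 to 10 with each library left out in turn. That limma fit called 6269 of all 14816 genes it tested. Leaving out 1 library called from 6268 of 21598 genes (without shMORC2 replicate 3) to 8433 of 21524 (without shMORC2 replicate 1). Over these genes and MORC2, 165 alternative values gave 149 that kept their call, 16 that lost it and 0 reversals. The losses were 7 for DDIT3, 8 for CHAC1 and 1 for ATF3 (limma on log2(RPKM + 1), adjusted p 0.0601). The replicate block called all 10 genes and changed no call among them; in the lists it added EIF2B1, SLC3A2, QARS and TXNDC5. Without shCtrl replicate 1 all 10 genes were called (7898 of all 21521 genes tested), and their fold changes were larger in size. DDIT3 came to -1.45, PPP1R15A to -1.61 and CHAC1 to -1.77 on the log2 scale. Without shCtrl replicate 2, the log2 fold changes of DDIT3, ATF3, CHAC1 and SESN2 fell in size by over 1.5 times. That library was also left out of 2 further fits, chosen after seeing the data, which called 8 (DESeq2) and 9 (replicate block, DDIT3 included) of the genes. Over all genes they called 5669 of 35808 (DESeq2, 15273 of them without an adjusted p) and 8613 of 21594 (replicate block). Requiring a log2 fold change of at least 0.5 left 3 sensors and eIF2 regulators, 3 synthetases and 3 genes of ER-associated degradation, by the construction of that rule. Over all genes tested it left 2554 called higher and 2153 lower. Why a left-out library changed a call was not tested. Fold changes on the log2(RPKM + 1) scale understate those of scarce transcripts. Depth limits FGF21 and DERL3, which were not tested, and the called list genes FAM129A (2 to 18 counts per library) and NUPR1 (11 to 126), singled out after their values were seen, more than CHAC1 (89 to 706).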
